A study of Mus musculus with 11 samples.

Results

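The effect of JZL184 shared by both genotypes was examined in heart RNA of 11 mice, labelled as ventricle, as the mean of the JZL184 effect in CD mice and in WT mice, with equal weight for each genotype. This averaged contrast was fitted with edgeR's quasi-likelihood test on 11319 of 22608 genes, those with an average of at least 1 log2 CPM, the unit of level used here, in which counts are scaled for the depth of each mouse. A gene counted as shared when its log2 fold-change had the same sign in CD and in WT mice, which was true of 1908 of the 11319 genes (16.9%), 914 of them higher and 994 lower with JZL184. The averaged contrast had 0 differentially expressed genes (DEGs) at an adjusted p under 0.05, and 0 genes were called in both genotypes in the same direction. The gene nearest to a shared change was Angptl7, which lay below the filter on low counts and was higher with JZL184 than with vehicle, without overlap between mice, in both genotypes.

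The mice were male, 8 to 16 weeks old and on a C57BL/6J background. CD mice carry a hemizygous complete deletion of the interval that corresponds to the Williams-Beuren syndrome (WBS) critical region, and WT mice are their littermates. JZL184 was injected at 8 mg/kg daily for 10 days in 3 CD mice (CD JZL184) and 3 WT mice (WT JZL184), and vehicle in 3 CD mice (CD VEH) and 2 WT mice (WT VEH). One label of the control mice calls them untreated and another gives vehicle. The comparison asks what the compound does to the heart whatever the genotype.

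JZL184 inhibits monoacylglycerol lipase (MAGL, encoded by Mgll), the serine hydrolase that breaks down the endocannabinoid 2-arachidonoylglycerol (2-AG) into arachidonic acid and glycerol. Its inhibition raises 2-AG, an agonist of the cannabinoid receptors CB1R and CB2R, and lowers the supply of arachidonic acid for prostaglandins in some tissues. The heart uses MAGL also in the last step of triglyceride breakdown.

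Total counts per mouse lay between 69660232 and 92251443. In all 14 tested genes of the deleted interval the CD mice lay below the WT mice without overlap, with a median log2 fold-change of -0.955 for CD minus WT. This checks the genotype labels. No value in the table checks the treatment labels, and no library batch is given in the sources used here. Every result below takes these labels as given. Transcripts of mitochondrial DNA made up 39.4% to 41.2% of counts in WT VEH, 45.0% to 46.6% in WT JZL184, 43.5% to 44.7% in CD VEH and 36.4% to 40.1% in CD JZL184. That share was thus higher with JZL184 in WT mice and lower with JZL184 in CD mice. The cardiomyocyte markers Myh6, Tnnt2, Tnni3, Actc1, Ryr2 and Pln summed to 35800 to 37300 CPM in WT VEH, 25300 to 33600 in WT JZL184, 29500 to 32700 in CD VEH and 35100 to 36600 in CD JZL184. The sum was lower with JZL184 in WT mice and higher in CD mice, without overlap in either genotype. The 5 atrial markers summed to 171 to 194 CPM in WT VEH, 111 to 221 in WT JZL184, 50.5 to 148 in CD VEH and 74.2 to 125 in CD JZL184, with Bmp10 at or near 0 and overlap between JZL184 and VEH in both genotypes. In bulk RNA, fewer cells of a type and less RNA per cell cannot be told apart.

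The promoters of 4 genes are given first, as the 250 bases before the RefSeq start of each gene in GRCm38.p6, on the strand of the gene. They are Angptl7, the gene nearest to a shared change, Mgll, the target of the compound, and Errfi1 and Rgs2. Errfi1 and Rgs2 had low unadjusted p-values in the averaged contrast and the same sign in both genotypes. Neither was called in WT mice (unadjusted p = 0.455 and 0.189 in edgeR). The windows of Clcn6 and Cdkn1a, also same-sign genes with low p-values, were searched too and are described below. Capitals mark the E-box CACGTG, the glucocorticoid half-site AGAACA, the nuclear receptor half-site AGGTCA and the cAMP response half-site TGACG. Each was searched on both strands, so that it may also stand as its reverse complement, and the cAMP half-site was searched after the values had been seen. Mgll and Errfi1 have 2 promoter entries each, of which one holds a searched motif and is shown, and the other holds none. Sik1 and Ahr are named without a promoter.
Angptl7, chr4:148500463-148500712, minus strand: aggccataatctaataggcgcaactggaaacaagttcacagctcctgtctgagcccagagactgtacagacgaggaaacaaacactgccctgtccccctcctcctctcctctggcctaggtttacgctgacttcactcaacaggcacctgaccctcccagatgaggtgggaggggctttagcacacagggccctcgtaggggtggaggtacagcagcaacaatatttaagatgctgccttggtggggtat
Mgll, chr6:88724162-88724411, plus strand: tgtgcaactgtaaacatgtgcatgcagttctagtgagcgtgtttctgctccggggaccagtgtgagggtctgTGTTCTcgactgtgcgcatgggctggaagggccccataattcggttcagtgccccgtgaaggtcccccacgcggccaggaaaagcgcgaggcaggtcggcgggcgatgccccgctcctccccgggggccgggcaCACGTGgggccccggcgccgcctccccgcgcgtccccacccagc
Errfi1, chr4:150854820-150855069, plus strand: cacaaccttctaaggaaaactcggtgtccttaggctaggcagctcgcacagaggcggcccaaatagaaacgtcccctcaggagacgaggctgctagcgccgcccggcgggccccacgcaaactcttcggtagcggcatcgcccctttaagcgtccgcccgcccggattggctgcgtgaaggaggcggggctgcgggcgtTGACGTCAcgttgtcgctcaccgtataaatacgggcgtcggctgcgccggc
Rgs2, chr1:144004150-144004399, minus strand: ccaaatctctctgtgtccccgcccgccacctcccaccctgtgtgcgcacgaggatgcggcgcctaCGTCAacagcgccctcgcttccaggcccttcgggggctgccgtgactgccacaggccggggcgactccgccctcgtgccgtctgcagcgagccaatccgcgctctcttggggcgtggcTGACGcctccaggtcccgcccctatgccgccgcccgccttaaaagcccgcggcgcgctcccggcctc
None of these letters was found in the Angptl7 window. The Mgll window held the glucocorticoid half-site on the other strand 178 bases before the start, and CACGTG 44 bases before it. The Errfi1 window held TGACG on both strands, overlapping in one palindrome that begins 51 bases before the start. The Rgs2 window held it on the other strand 185 bases before the start and on the strand of the gene 67 bases before it. The half-site TGACG was in 26.4% of the 11433 promoters of tested genes and in 17.8% of all 32851 promoters. Among same-sign genes with an unadjusted p under 0.05, it was in 37 of 105 promoters of genes with lower values (35.2%) and in 28 of 130 of genes with higher values (21.5%). The E-box was in 10.5% and 9.23% of these promoters, the glucocorticoid half-site in 9.52% and 12.3%, and the nuclear receptor half-site in 10.5% and 11.5%, for lower and higher values in turn. In the promoters of tested genes the shares were 8.34%, 10.7% and 10.6%. In all promoters they were 6.02%, 16.1% and 14%. These shares are a description of the windows and carry no test.

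The averaged effect was small beside the effect in each genotype. Over the tested genes, the median absolute log2 fold-change was 0.0469 in the averaged contrast, 0.175 in CD mice and 0.182 in WT mice. The SD of the log2 fold-changes was 0.0912, 0.276 and 0.303 in the same order. The median standard error (SE) was 0.063 in the averaged contrast, 0.0837 in CD mice and 0.0941 in WT mice, so the averaged effect was the most precisely estimated. For 11020 genes (97.4%) the 95% interval of the averaged log2 fold-change lay within 0.5 of 0 on both sides. An absolute averaged log2 fold-change over 0.5 was seen in 20 genes and over 1 in 4 genes.

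The p-values of the averaged contrast were spread evenly. An unadjusted p under 0.05 was found in 589 genes (5.20% of those tested), 374 higher and 215 lower. Of these 589 genes, 226 had the same sign in CD and in WT (115 higher and 111 lower), and 363 had opposite signs. The smallest adjusted p was 0.399 in edgeR. With DESeq2 in the same 4-group model, 610 genes had an unadjusted p under 0.05 and 4 genes passed the adjusted threshold (Ahr, Fam84b, Gsta3 and Dok4), all with opposite signs in CD and in WT. Leaving out one WT JZL184 mouse (A) raised the number of genes with an unadjusted p under 0.05 to 1639, still with 0 DEGs, and it fell to 351 without CD JZL184 mouse E and to 355 without WT VEH mouse C.

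**Figure D1:**
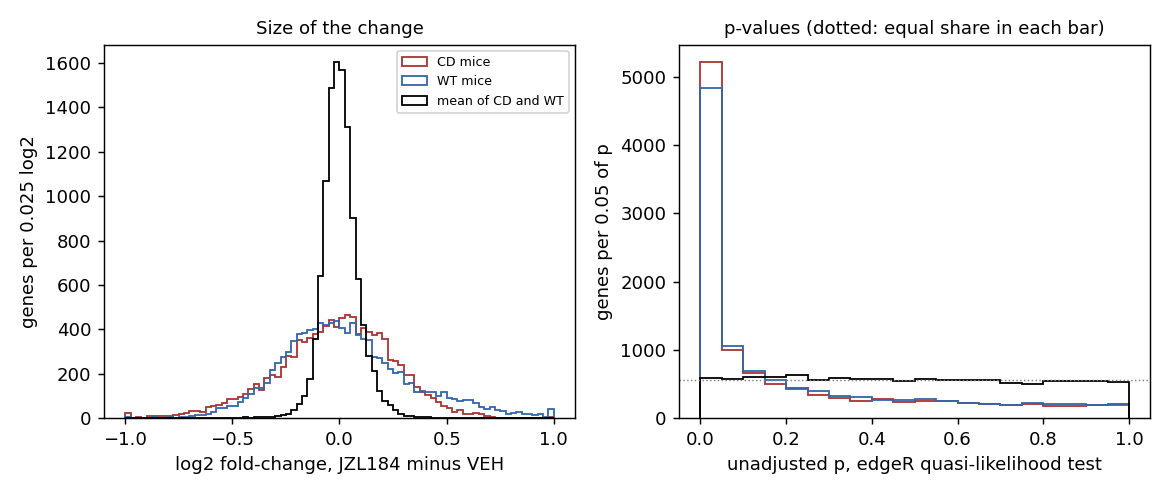
Left, number of genes by log2 fold-change of JZL184 minus VEH in CD mice, in WT mice and as the mean of both, with values beyond 1 in either direction counted in the end bars. Right, number of genes by unadjusted p. The averaged contrast is narrow (SD 0.0912 against 0.276 and 0.303) and its p-values lie near the dotted line of an equal share per bar, whereas those of each genotype pile up near 0.

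Each genotype on its own had many DEGs, and they moved in opposite directions. JZL184 changed 3831 genes in CD mice (33.8% of those tested) and 3332 genes in WT mice (29.4%). The CD count was 2038 to 2450 without CD JZL184 mouse A or E or CD VEH mouse A or E, and the WT count was 558 without WT VEH mouse C, 1031 without WT VEH mouse D and 2093 without WT JZL184 mouse B. Of the 3831 genes called in CD, 89 (2.32%) had the same sign in WT, and of the 3332 called in WT, 41 (1.23%) had the same sign in CD. Called in both genotypes were 2295 genes (20.3%), all in opposite directions, with 1185 higher in CD and lower in WT and 1110 lower in CD and higher in WT. Without one mouse, these opposite calls numbered 447 (WT VEH mouse C left out), 829 (WT VEH mouse D) and 1435 to 1499 (CD VEH mouse A or E, CD JZL184 mouse A or E), and they rose to 2863 without WT JZL184 mouse A. A difference between the 2 effects, tested as the interaction of genotype and JZL184, was called for 5828 genes (51.5%). Among the 1908 genes with the same sign, the interaction was called for 11. Across genes, the log2 fold-changes in CD and in WT had a Pearson r of -0.805 and a Spearman rho of -0.835. The CD and WT contrasts share no mouse but share the scaling and the dispersion, and genes are not independent replicates.

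**Figure D2:**
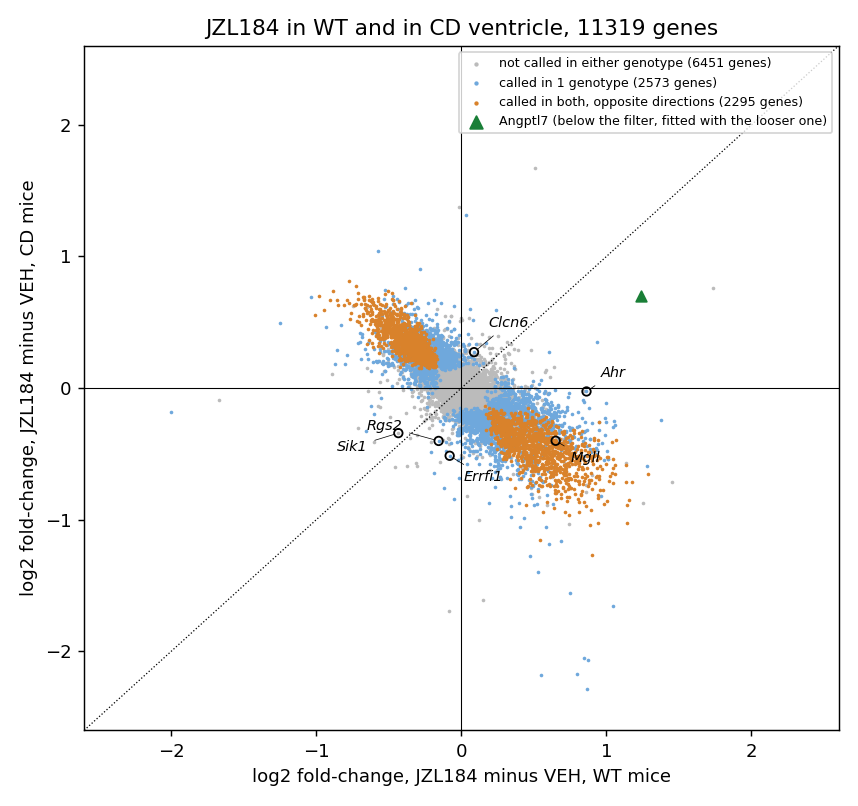
Log2 fold-change of JZL184 minus VEH in WT mice (horizontal) and in CD mice (vertical), 1 point per tested gene, coloured by the genotypes in which edgeR called it, with the dotted line at equal effects. Of the 11319 points, 2 lie outside the axes. The 2295 genes called in both genotypes all lie at the upper left and lower right, and Angptl7, fitted with a looser filter, is the triangle at the upper right.

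Same-sign genes were mostly genes with little change. Among the 6451 genes not called in either genotype, 1778 (27.6%) had the same sign. An absolute log2 fold-change over 0.5 in both genotypes was seen with the same sign in 2 genes, Gm4841 and Gm21541, against 468 with opposite signs. Gm4841 ranged from 1.68 to 15.2 CPM in CD JZL184 and from 1.71 to 2.88 CPM in CD VEH, and its groups overlapped in both genotypes. Gm21541 was at 0.0261 CPM in one WT JZL184 mouse and at 8.36 CPM in another. An unadjusted p under 0.05 in both genotypes was found in 1 same-sign gene, Sik1, and in 3502 genes with opposite signs. The JZL184 and VEH mice did not overlap in CPM in either genotype for 38 genes in the same direction (0.336%; 20 higher and 18 lower) and for 4274 genes in opposite directions (37.8%).

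The count of 0 genes called in both genotypes in the same direction changed when single mice were left out. Without WT JZL184 mouse A it was 13, with 5 higher and 8 lower, and each of them had a small change. These are counts of identifiers, and the pair that stands for Srsf1 is counted in full among the lower ones. Zfp362, a zinc finger gene, had the largest change in WT, 0.32 on the log2 scale (adjusted p = 0.0126 in edgeR) with 0.28 in CD (adjusted p = 0.0097). Among the others higher were Dock1, a Rac activator (0.20 in CD and 0.21 in WT), Zbtb7a, a transcriptional repressor (0.18 and 0.18), and Sft2d2 (0.14 and 0.24). Lower were Srsf1, a splicing factor that the table lists under a pair of identifiers with identical values (-0.22 and -0.20), Katna1, a katanin subunit (-0.22 and -0.23), Nasp (-0.18 and -0.24), Cacybp (-0.18 and -0.22), Gpbp1 (-0.16 and -0.17), Mkks (-0.15 and -0.17) and Nkiras1 (-0.15 and -0.21). Without one of 4 other mice the count was 1, and the gene differed each time. It was Ggnbp1 (without CD JZL184 mouse A), Klhl22 (without CD VEH mouse C), Sik1 (without CD VEH mouse E) or Tsc22d3, a glucocorticoid-induced leucine zipper gene (without WT JZL184 mouse B), and these genes were named after their values were seen.

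Angptl7 encodes a secreted angiopoietin-like protein. It was at 0.866, 1.01 and 0.965 CPM in CD JZL184 and at 0.506, 0.675 and 0.575 CPM in CD VEH. In WT mice it was at 1.69, 2.42 and 2.66 CPM with JZL184 and at 1.09 and 0.819 CPM with vehicle. The groups did not overlap in either genotype, and both JZL184 groups were higher than their own controls. The CD JZL184 mice lay within the range of the WT VEH mice. The means were 0.947 ± 0.0731 CPM (SD, n = 3) in CD JZL184, 0.585 ± 0.0848 (n = 3) in CD VEH, 2.26 ± 0.502 (n = 3) in WT JZL184 and 0.953 ± 0.189 (n = 2) in WT VEH. Behind these values stand 42 to 230 counts per mouse. Its average of 0.286 log2 CPM lay below the filter of 1, so it was not among the 11319 genes, and it was chosen after its values were seen.

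With at least 10 counts in every mouse as the filter (13839 genes), Angptl7 had the smallest p of the averaged contrast. Its log2 fold-change was 0.97 (SE 0.15, unadjusted p = 2.61e-05 and adjusted p = 0.187 in edgeR), so it was not a DEG of the averaged contrast. Within genotypes it rose by 0.70 on the log2 scale in CD mice (SE 0.207, adjusted p = 0.0259 in edgeR) and by 1.24 in WT mice (SE 0.218, adjusted p = 0.00395). Under this filter, 1 gene was called in both genotypes in the same direction, and it was Angptl7. The interaction had an adjusted p of 0.16. When each mouse was left out in turn, the averaged log2 fold-change stayed between 0.87 and 1.08, WT was called in 11 of 11 fits and CD in 7 of 11, with adjusted p-values in CD up to 0.0972. The CD call was lost without CD JZL184 mouse C or E and without CD VEH mouse A or E. Without one WT JZL184 mouse (A), the interaction had an adjusted p of 0.0386. Angptl7 (chr4:148495183-148500460, minus strand, GRCm38) lies inside Mtor, which is on the plus strand. Whether the libraries kept strand is not given in the sources used here, so reads of Mtor transcripts before splicing cannot be told apart from those of Angptl7. Mtor itself had a log2 fold-change of 0.40 in CD mice (adjusted p = 0.0072 in edgeR) and -0.31 in WT mice (adjusted p = 0.0363), opposite in sign where Angptl7 was not.

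**Figure D3:**
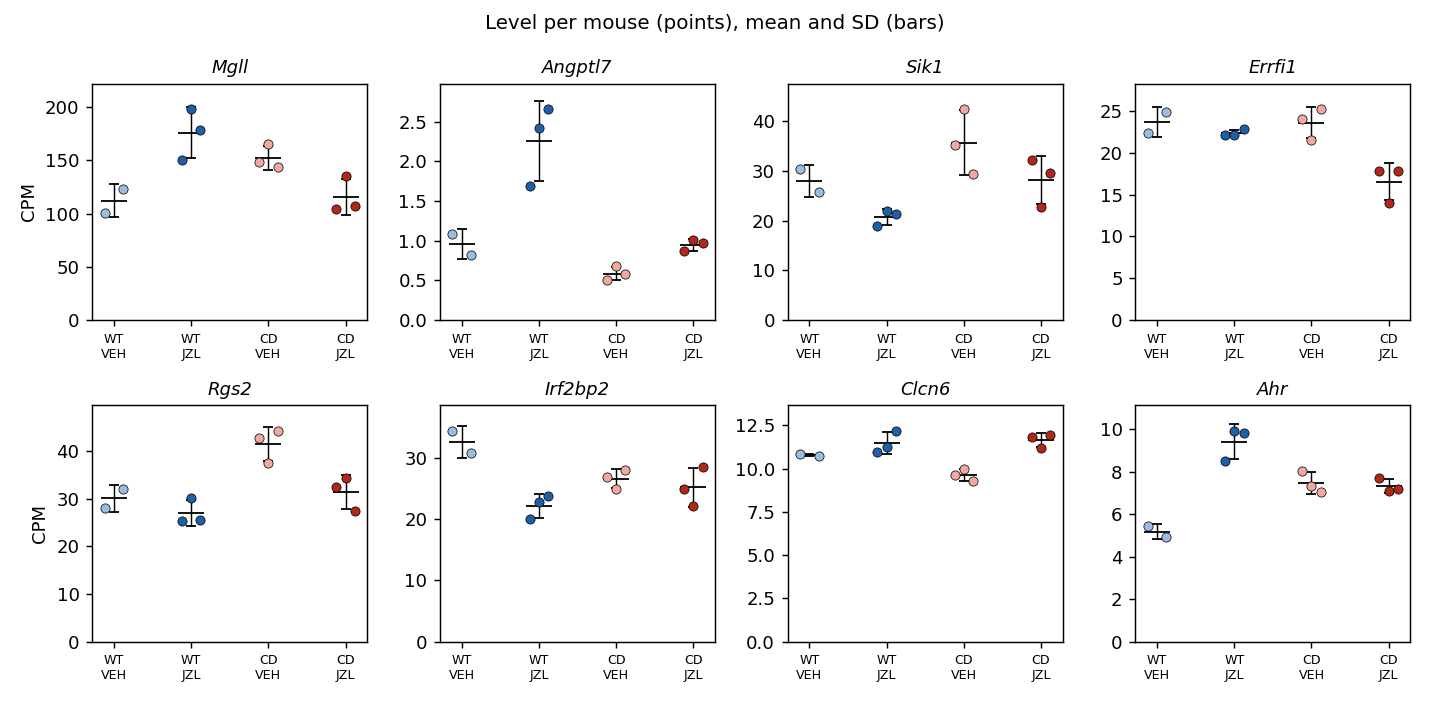
CPM of 8 genes in each mouse (points) with the mean and SD of each group (bars), from 0. Angptl7 is higher in both JZL184 groups than in their controls, Mgll is higher with JZL184 in WT mice and lower with it in CD mice, and the Ahr points are apart in WT mice and mixed in CD mice.

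The target of the compound had no shared change. Mgll was at 150.5, 198.2 and 178.4 CPM in WT JZL184 against 100.9 and 123 CPM in WT VEH. In CD mice it was at 104.1, 135 and 107.3 CPM with JZL184 against 148.3, 165.2 and 143.7 CPM with vehicle. The groups did not overlap in either genotype, and the direction was opposite. Mgll rose by 0.65 on the log2 scale in WT mice (adjusted p = 0.00792 in edgeR) and fell by 0.40 in CD mice (adjusted p = 0.0278), and the interaction had an adjusted p of 0.000925. The averaged log2 fold-change was 0.13 (SE 0.0926, adjusted p = 0.936). When each mouse was left out in turn, it lay between 0.057 (without WT VEH mouse C) and 0.2 (without WT VEH mouse D). Mgll spans chr6:88724412-88828360 on the plus strand (GRCm38).

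The other enzymes of the pathway were near 0 in the averaged contrast. Napepld, which makes the endocannabinoid anandamide and related amides, had an averaged log2 fold-change of -0.07 (SE 0.0599, adjusted p = 0.936 in edgeR). It fell by 0.37 in WT mice (adjusted p = 0.0121) and had a log2 fold-change of 0.22 in CD mice (adjusted p = 0.0525). Abhd6 and Abhd12, hydrolases that also degrade 2-AG, had averaged log2 fold-changes of 0.08 and 0.03. Without each mouse in turn these lay at 0.0222 to 0.146 and at 0.00813 to 0.065, and that of Napepld at -0.0912 to -0.0434. Dagla and Daglb, the lipases that make 2-AG, had -0.00079 and 0.0017, and the sign of each changed with the processing. These 4 genes were called neither in the averaged contrast nor in either genotype. The receptors were scarce in this tissue. Cnr1, which encodes CB1R, had 0 to 4 counts per mouse, where 3 counts correspond to 0.0306 to 0.0435 CPM. Cnr2, which encodes CB2R, had 48 to 111 counts, and Faah, the hydrolase of anandamide, 11 to 31 counts. These 3 genes lay below the filter. Of the 9 tested genes of the whole endocannabinoid list, 0 had the same sign in CD and in WT, where 16.9% of all tested genes did.

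The genes with the smallest p-values of the averaged contrast had their larger change in WT mice. Ahr, the aryl hydrocarbon receptor, was at 8.49, 9.94 and 9.85 CPM in WT JZL184 against 5.43 and 4.94 CPM in WT VEH. In CD mice it was at 7.72, 7.10 and 7.21 CPM with JZL184 against 8.04, 7.33 and 7.05 CPM with vehicle. The WT groups were apart and the CD groups overlapped. Its averaged log2 fold-change was 0.42 (SE 0.0652, adjusted p = 0.399 in edgeR), made of 0.86 in WT mice (adjusted p = 0.000867) and -0.03 in CD mice (adjusted p = 0.834). Fam84b had an averaged log2 fold-change of 0.44 (0.9996 in WT and -0.11 in CD), and Gsta3, a glutathione transferase, of 0.35 (0.95 in WT and -0.26 in CD). The signalling adaptor Dok4 had 0.25 (0.83 in WT and -0.33 in CD) and the protocadherin Pcdh1 0.22 (0.57 in WT and -0.12 in CD). The interaction was called for each of these 5 genes, as it was for 51.5% of all tested genes. All 5 had opposite signs in CD and in WT, so none of them counts as shared.

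Of the 12 same-sign genes with the smallest p-values, 8 were lower with JZL184. Irf2bp2, a transcriptional corepressor, had an averaged log2 fold-change of -0.31 (SE 0.072, unadjusted p = 0.000945, adjusted p = 0.936 in edgeR). It lay at 20.01, 22.78 and 23.82 CPM in WT JZL184, below the 34.4 and 30.8 CPM of WT VEH. The CD groups of Irf2bp2 overlapped, and the interaction was called (adjusted p = 0.0162).

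Errfi1, a feedback inhibitor of the EGF receptor family, was at 17.83, 14.01 and 17.81 CPM in CD JZL184 against 24.0, 21.6 and 25.3 CPM in CD VEH. In WT mice it was at 22.2, 22.1 and 22.9 CPM with JZL184 against 22.4 and 24.9 CPM with vehicle, and the WT groups overlapped. Its averaged log2 fold-change was -0.30 (SE 0.07, adjusted p = 0.936 in edgeR), with a call in CD (-0.51, adjusted p = 0.00344) and none in WT (-0.08, adjusted p = 0.58). Rgs2, which turns off signalling through Gq-coupled receptors, was at 32.4, 34.3 and 27.5 CPM in CD JZL184 against 42.8, 37.4 and 44.2 CPM in CD VEH. It was at 25.3, 30.1 and 25.6 CPM in WT JZL184 against 28.1 and 32.0 CPM in WT VEH. The CD groups of Rgs2 were apart and the WT groups overlapped. Its averaged log2 fold-change was -0.28 (SE 0.0751, adjusted p = 0.936 in edgeR), -0.40 in CD and -0.16 in WT. The promoters of both genes, printed above, hold the half-site TGACG. Of the other windows searched, neither entry of Cdkn1a, a gene with lower values, held it, and that of Clcn6, a gene with higher values, held it on both strands.

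Sik1, a salt-inducible kinase whose transcript responds to cAMP, was the tested gene with an unadjusted p under 0.05 in both genotypes and the same sign. It was at 32.3, 22.7 and 29.5 CPM in CD JZL184 against 35.3, 42.5 and 29.4 CPM in CD VEH. In WT mice it was at 18.9, 21.9 and 21.3 CPM with JZL184 against 30.3 and 25.7 CPM with vehicle. The CD groups overlapped and the WT groups did not. The log2 fold-change was -0.34 in CD (unadjusted p = 0.0345, adjusted p = 0.0833 in edgeR) and -0.43 in WT (unadjusted p = 0.0195, adjusted p = 0.0612). The averaged value was -0.39 (SE 0.108, adjusted p = 0.936), with a 95% interval from -0.62 to -0.15. Without one CD VEH mouse (E), Sik1 was called in both genotypes. Sik1 spans chr17:31844250-31855804 on the minus strand.

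Cdkn1a, Scd4 and Slc6a6 were called in WT mice and had the same sign, with no call, in CD mice. Cdkn1a, the cell cycle inhibitor p21, had an averaged log2 fold-change of -0.49 (SE 0.138), and fell in WT mice by 0.66 (adjusted p = 0.0327 in edgeR) with 26.4 to 32.6 CPM against 46.1 and 46.3 CPM. Its CD groups overlapped, at 19.0 to 29.2 CPM with JZL184 and 22.8 to 40.1 CPM with vehicle. Scd4, a stearoyl-CoA desaturase, had an averaged log2 fold-change of 0.64 (SE 0.182) and rose in WT mice by 0.93 (adjusted p = 0.0267). Slc6a6, the taurine transporter, had 0.28 (SE 0.0742) and rose in WT mice by 0.50 (adjusted p = 0.00916), with 0.05 in CD mice. Trim50 was at 0 to 0.116 CPM in WT mice, near the depth limit, and at 5.66 to 6.90 CPM in CD mice, so its averaged log2 fold-change of -1.09 rests on WT levels near 0. It was -1.94 without WT JZL184 mouse D and -0.339 in an additive model of genotype and JZL184.

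Of the 38 genes without overlap in either genotype, 20 had a mean of at least 5 CPM and an unadjusted p under 0.05 in the averaged contrast, and their changes were small. The 10 higher genes had averaged log2 fold-changes from 0.10 to 0.19, and 2 of them were called in CD and 0 in WT. The 10 lower genes had -0.35 to -0.09, with 4 called in CD and 0 in WT. Of all tested genes 33.8% were called in CD and 29.4% in WT. The CD count is thus near the background, and the WT count of 0 is below it. Clcn6, a chloride-proton exchanger of late endosomes, was at 11.8, 11.18 and 11.96 CPM in CD JZL184 against 9.62, 9.99 and 9.31 CPM in CD VEH. It was at 10.97, 11.23 and 12.19 CPM in WT JZL184 against 10.9 and 10.7 CPM in WT VEH, so the gap in WT mice was narrow. Its averaged log2 fold-change was 0.18 (SE 0.0471, adjusted p = 0.936 in edgeR), with a call in CD (0.27, adjusted p = 0.00802).

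The other higher genes without overlap had varied roles. They were Kdm6b, a histone H3K27 demethylase (0.17), Git1, a GTPase-activating scaffold (0.13), Med15, a Mediator subunit (0.15), Fbxl20, an F-box protein (0.19), Samhd1, a dNTP hydrolase (0.10), Zfp335 (0.11), Tmem127 (0.11), Khnyn (0.14) and 2510009E07Rik (0.13), with the averaged log2 fold-change given for each. Lower were Nasp, a histone chaperone (-0.18), Cbx3, a heterochromatin protein (-0.15), Vbp1, a prefoldin subunit (-0.17), Ndufs5, a complex I subunit (-0.12), Pole4, a DNA polymerase epsilon subunit (-0.11), Rad1, a checkpoint clamp protein (-0.15), Eif1b (-0.09), Snx15, a sorting nexin (-0.12), Nkiras1 (-0.15) and 2310002L09Rik (-0.35).

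Across 25 gene lists, the 487 tested genes included 0 DEGs of the averaged contrast. An unadjusted p under 0.05 was found in 20 higher and 16 lower genes (7.39%, against 5.20% of all tested genes), and 69 genes (14.2%) had the same sign in both genotypes, against 16.9% of all. List medians of the averaged log2 fold-change lay between -0.151 and 0.0931, where the median of all tested genes was 0.000607. The CD and WT medians had opposite signs in 23 lists and the same sign in 2. When each mouse was left out in turn, the averaged median turned sign in at least 1 of 11 fits for 15 of the 25 lists. The CD and WT medians came to share a sign in 6 of 11 fits for the endocannabinoid list and for the hydrolases hit by serine hydrolase inhibitors, in 3 for the unfolded protein response and in 1 for immediate early genes.

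**Figure D4:**
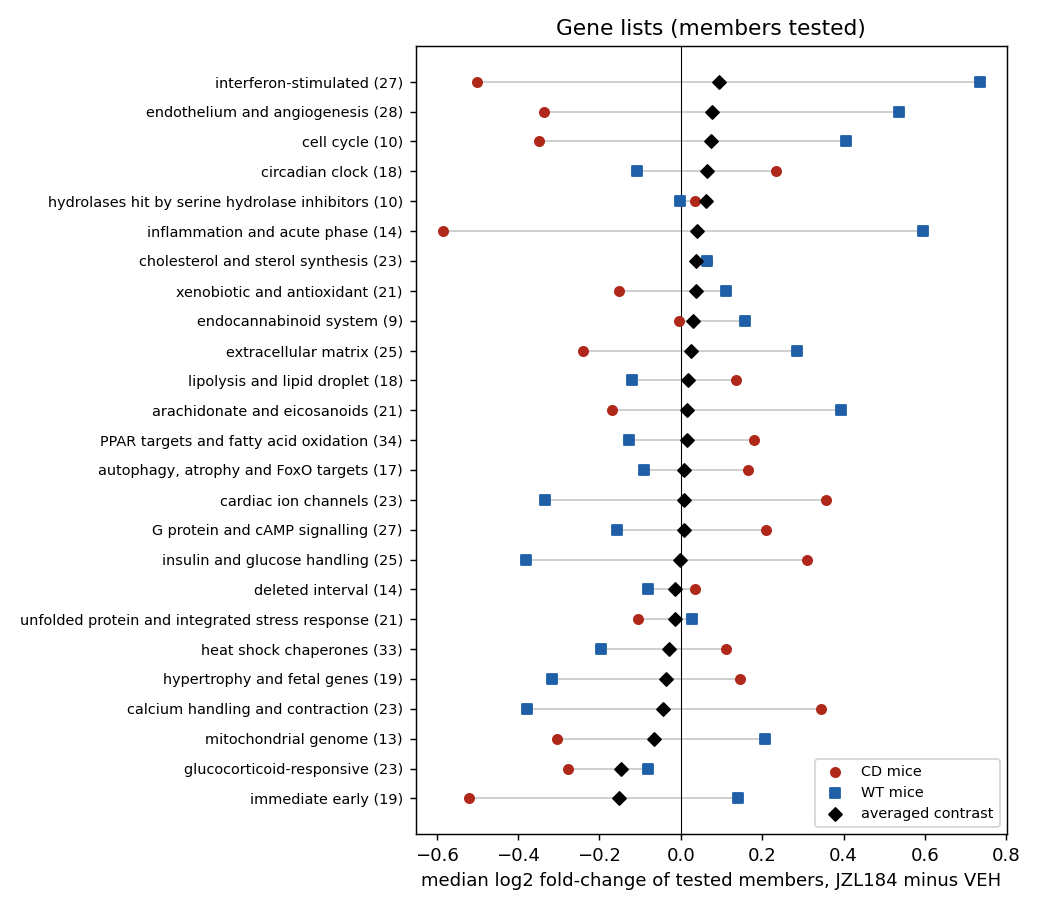
Median log2 fold-change of the tested members of each of 25 gene lists (number of members in parentheses) in CD mice, in WT mice and in the averaged contrast. CD and WT medians lie on opposite sides of 0 in 23 lists, and the averaged medians stay between -0.151 and 0.0931.

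The 2 lists with medians of the same sign were the glucocorticoid-responsive genes and the cholesterol genes. The glucocorticoid-responsive genes (23 tested) had medians of -0.28 in CD, -0.08 in WT and -0.15 in the averaged contrast. The CD median was -0.152 without CD VEH mouse C, -0.183 without CD VEH mouse E and -0.321 without CD VEH mouse A. When a mouse was left out, the averaged median lay between -0.107 and -0.277, the latter without WT JZL184 mouse B. The WT median was near 0 without WT VEH mouse D (-0.00169) or WT JZL184 mouse A (-0.0176), and -0.176 without WT JZL184 mouse B. Of the tested genes of this list 8 had the same sign, against 16.9% of all tested genes, and 7 of these 8 were lower. The others had opposite signs in CD and in WT. The interaction was called for 12 of the 23, against 51.5% of all tested genes. At an unadjusted p under 0.05 there were 4 lower genes (Errfi1, Cdkn1a, Sgk1 and Arrdc2) and 1 higher (Mertk), where 5.20% of all tested genes passed. Sgk1, a kinase that regulates ion transport, had opposite signs, as it fell by 0.90 in CD mice (adjusted p = 0.00201 in edgeR) and had 0.34 in WT mice (adjusted p = 0.0695). Mertk had opposite signs as well, with -0.09 in CD mice and 0.47 in WT mice. The cholesterol and sterol synthesis genes (23 tested) had medians of 0.06 in both CD and WT and 0.04 in the averaged contrast, and the latter lay between 0.00705 (without WT JZL184 mouse D) and 0.072 (without WT JZL184 mouse B) when a mouse was left out. All 7 same-sign members had higher values. Among them were Mvk, mevalonate kinase (0.19, unadjusted p = 0.0277 in edgeR), and Srebf2, the regulator of the pathway (0.11, unadjusted p = 0.0862). The other tested members had opposite signs in CD and in WT, and the interaction was called for 7 of the 23. In both lists 0 members were DEGs of the averaged contrast.

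Immediate early genes (19 tested) had an averaged median of -0.15, with -0.52 in CD and 0.14 in WT. It shrank to between -0.0978 and -0.0552 without CD JZL184 mouse A, CD VEH mouse A, WT JZL184 mouse A or D, or WT VEH mouse C. The WT median was 0.0168 without WT JZL184 mouse B, 0.271 without WT JZL184 mouse A and 0.275 without WT VEH mouse C. It turned to -0.0298 without WT VEH mouse D. The CD median was -0.257 without CD VEH mouse A. Atf3, a stress-induced transcription factor, fell by 0.68 in CD mice (adjusted p = 0.0102 in edgeR), whereas it had -0.01 in WT mice. The orphan receptor Nr4a3 had -0.59 in CD and -0.37 in WT, with overlap in both genotypes. Ccn2, a matricellular growth factor also induced in fibrosis, had the opposite direction, with 0.19 in CD and 0.35 in WT and an averaged value of 0.27 (SE 0.0916, adjusted p = 0.936). Clock genes (18 tested) had an averaged median of 0.06 and 0 with an unadjusted p under 0.05. Per1 had -0.51 (SE 0.275) and Per2 0.35 (SE 0.229), both with the same sign in CD and in WT.

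Of 23 tested ion channels of the cardiac action potential, 2 were lower same-sign genes with an unadjusted p under 0.05, as were 111 of all 11319 tested genes. Kcna5, a potassium channel, fell by 0.55 in CD mice (adjusted p = 0.0191 in edgeR) and had -0.03 in WT mice. Kcne1, a potassium channel subunit, had -0.57 in CD and -0.32 in WT, neither called. Ptges3, a prostaglandin synthase and co-chaperone, had -0.11 in CD and -0.13 in WT (averaged -0.12, SE 0.0475), and Hspb2, a small heat shock protein of muscle, had -0.13 and -0.03.

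Endothelial and angiogenic genes (28 tested) had 0 same-sign members, where 16.9% of all tested genes had the same sign. At an unadjusted p under 0.05 they had 8 higher and 2 lower genes in the averaged contrast, where 5.20% of all tested genes passed, for example Cdh5, VE-cadherin (0.62 in WT and -0.25 in CD), and Kdr, a VEGF receptor (0.59 in WT and -0.18 in CD). The 5 endothelial markers summed to 744 to 767 CPM in WT JZL184, 484 to 491 in WT VEH, 477 to 560 in CD JZL184 and 619 to 685 in CD VEH. The marker sum thus did not overlap between JZL184 and VEH in either genotype, in opposite directions. Macrophage markers summed to 123 to 195 CPM in WT JZL184, 99.6 to 101 in WT VEH, 91.1 to 102 in CD JZL184 and 128 to 156 in CD VEH. Smooth muscle markers followed the same order of groups. Fibroblast markers summed to 797 to 991 CPM in WT JZL184 and 674 to 688 in WT VEH. In CD mice their sum was 617 to 720 CPM with JZL184 and 784 to 896 with vehicle. Of the 5 fibroblast markers, 1 was called in CD and 2 in WT. The part of these cell types in the results was not tested. The 5 erythroid markers summed to 18800 CPM in one CD VEH mouse and to between 1420 and 5510 CPM in the other 10 mice, and all 5 were called lower with JZL184 in CD mice and for the interaction, but not in WT mice or in the averaged contrast (median log2 fold-change -0.69). Of all tested genes 33.8% were called in CD, 29.4% in WT and 51.5% for the interaction. Without that mouse (CD VEH mouse A), 0 were called in CD and 3 were called in WT, and the averaged median was 0.195, with 0 called.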

How the data were processed

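Heart RNA of 11 mice was sequenced by the authors on a HiSeq3000 instrument. Per the labels it came from the ventricle, whereas removal of the atria is not stated for these samples in the sources used here. They quantified transcripts with Salmon 0.7.2 (GRCm38, Ensembl annotation) and summed them with tximport, and the deposited table holds estimated counts per gene and mouse, with no normalization. Columns of the table without a group numbered 0. Each column names a group and a letter, so mice were known by group only.

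The expected counts deposited were made whole numbers by rounding. The quasi-likelihood test of edgeR 4.0.16 (R 4.3.3) was fitted to 4 group means with TMM factors and Benjamini-Hochberg adjustment. The averaged contrast weights both genotypes equally. CPM used the same factors, and the SE follows from the fold-change and the F statistic. The common biological coefficient of variation was 9.13%. DESeq2 1.42.0 and the alternatives of the closing section were run beside it, and the steps were tested on simulated counts. Total counts were 69660232 to 92251443, and limits from 3 counts cover counting error only. Mice of a group are separate replicates in the design text, and their counts differed by a chi-square of 22.6 to 125 per gene.

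Symbols matched 22238 of 22608 identifiers (16070 with the same version), from GENCODE M21. Of the tested identifiers, 80 (40 sets of values) were identical to another in every mouse, so those genes are counted more than once.

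The genes and lists were chosen with earlier results of these data known. The planned rule named DEGs of the averaged contrast with the same sign and no overlap (12 in each direction, at least 5 CPM), genes called in both genotypes, up to 4 DEGs per list, and Mgll, Faah, Abhd6, Abhd12, Dagla, Daglb, Napepld, Cnr1 and Cnr2. Only the last part gave genes. All other genes were chosen after their values were seen, by small p, by lack of overlap or as list members, and Angptl7 by its calls under looser filters. Results of 2 genes are not reported here.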

Additional observations from a re-analysis of the deposited data

Results flagged for a closer look

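The effect of JZL184 differed between CD and WT mice, by the interaction test of edgeR with an adjusted p under 0.05, in 5828 of 11319 genes (51.5%). Among the 50 genes that were run under each alternative it differed for 13, many of the 50 having been chosen for the same sign in both genotypes, and genes named only as list members or in a single fit are not counted here. The difference, as log2 fold-change in CD minus that in WT, was -1.05 for Mgll and 0.585 for Napepld. It was -1.15 for Dok4, -1.21 for Gsta3, -1.11 for Fam84b, -0.692 for Pcdh1 and -0.888 for Ahr, the genes with the smallest averaged p. Same-sign genes with an unequal effect were Irf2bp2 (0.476), Errfi1 (-0.434), Slc6a6 (-0.442), Trappc2 (-0.308), Trim50 (1.82) and Atf3 (-0.671). For Trim50 the WT levels lay near 0.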

How the results depend on the processing

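The averaged contrast kept 0 DEGs in every alternative but DESeq2, which called 4. The additive model left 143 genes with an unadjusted p under 0.05 in place of 589, and without each mouse in turn that number was 351 to 1639. The count of genes called in both genotypes in the same direction was 1 with no filter, with at least 10 counts in every mouse and with the mitochondrial-genome genes removed (Angptl7 each time), 0 with DESeq2, RLE, upper-quartile factors and robust dispersion, and 0 to 13 when a mouse was left out. With no filter, 4349 of 19080 genes had the same sign. Without each mouse in turn, the opposite calls in both genotypes were 447 (without WT VEH mouse C) to 2863 (without WT JZL184 mouse A), the calls in CD 2038 to 4655, and the calls in WT 558 to 4487, where a lone WT VEH mouse is assumed to vary like the other groups. Opposite calls were 641 at an adjusted p under 0.01 and 404 where log2 fold-changes had also to reach 0.5 in size.

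The averaged log2 fold-changes of Dagla and Daglb lay near 0 and turned. Dagla was at 0.00265 with DESeq2, 0.00282 with RLE, 0.0059 with upper-quartile factors and 0.0151 in the additive model, and at -0.0611 to 0.0485 without each mouse in turn. Daglb was at -0.000453 with no filter and at -0.0344 to 0.0623 without each mouse. The cause was not tested. The others of the 50 genes run under each alternative kept their sign, and each of the 25 list medians moved by less than the SD between mice of that list's mean level (0.038 to 0.239 on the log2 scale), although 15 turned sign when a mouse was left out. The runs of Angptl7 with each mouse left out were added after seeing the data. The columns carry no replicate numbers but letters, which are in no sample label. A fit with the letter as a replicate block, added after seeing the data, gave 0 DEGs of the averaged contrast, 704 genes with an unadjusted p under 0.05, 0 genes called in both genotypes in the same direction and 483 in opposite directions, with 591 called in WT. That fit had 3 residual degrees of freedom. The deviations of mice of one letter from their group means had r from -0.253 to 0.314. It was over 0.1 in 1 of 8 pairs, CD JZL184 mouse A and WT JZL184 mouse A. Pairs of unlike letters were not compared, so these values cannot decide whether the letter marks a pairing. The main fit does not use the letter. With 2 WT VEH mice, effects in WT rest on little replication.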
